A study of Mus musculus with 16 samples.

Results

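The glucocorticoid and FOXO fasting response genes examined here are Fkbp5, Sgk1, Tsc22d3, Zbtb16, Klf9, Klf15, Fbxo32, Foxo1, Foxo3 and Txnip, 10 named genes of 21887 protein-coding genes on assembled mouse chromosomes. They were taken by name, whether or not they held a region, and a region was assigned to a gene when it overlapped the gene or lay within 10 kb of it. The data were chromatin immunoprecipitation and sequencing of histone H3 carrying beta-hydroxybutyrylation at lysine 9 (H3K9bhb) in homogenised occipital cortex. Mice of strain C57BL/6J, aged 35 postnatal days, had either been fasted for 48 h or been fed ad libitum, and the labels name no genetic alteration. Each of these groups has 4 libraries from the immunoprecipitated chromatin and 4 from input. The authors deposited 8404 regions enriched in fasted mice and 1 enriched in ad libitum mice, each with its own log likelihood ratio (log-LR), which here is a score from the authors. The lists hold no value per library, so sequencing depth is unknown, and neither a fold change, a spread between mice nor a test between the feeding states could be computed.

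Fasting raises circulating glucocorticoids and lowers insulin. Glucocorticoids bind the glucocorticoid receptor, a nuclear receptor that is held by Hsp90 chaperones in the cytoplasm and that binds inverted repeats of the hexamer AGAACA in DNA. FOXO factors are kept out of the nucleus by Akt when insulin is high and enter it when insulin is low. Both arms switch on genes that limit growth and mobilise fuel, and several of the 10 genes are used as readouts of them. The acyl group of H3K9bhb comes from beta-hydroxybutyrate, the main ketone body made in fasting.

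The stretches that matter most for what follows are windows of 300 bases around listed transcription starts, from RefSeq on GRCm38.p6 (mm10), with 250 bases before the start and 50 from it on. The Sgk1 window (chr10:21993640-21993939, plus strand), the fifth of 6 listed starts along the gene, is shown because it holds the full glucocorticoid response element, in capitals. The Klf9 window (chr19:23140976-23141275, plus strand) and the Txnip window (chr3:96557707-96558006, plus strand) are shown because each holds the FOXO site GTAAACA, in capitals, one at a gene with fasting-enriched regions and one at a gene without. The capitals of the Txnip window also mark a looser match to the glucocorticoid element. The Tsc22d3 window (chrX:140542619-140542918, minus strand), the last of 3 listed starts along the gene, is shown because a fasting-enriched region covers 32 of its bases, in capitals.
Sgk1: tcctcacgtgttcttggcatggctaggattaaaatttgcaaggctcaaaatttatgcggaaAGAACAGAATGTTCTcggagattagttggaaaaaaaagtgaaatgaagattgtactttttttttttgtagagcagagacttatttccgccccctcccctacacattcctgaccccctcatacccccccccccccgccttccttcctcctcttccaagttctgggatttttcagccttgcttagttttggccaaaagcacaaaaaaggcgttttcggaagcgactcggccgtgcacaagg
Klf9: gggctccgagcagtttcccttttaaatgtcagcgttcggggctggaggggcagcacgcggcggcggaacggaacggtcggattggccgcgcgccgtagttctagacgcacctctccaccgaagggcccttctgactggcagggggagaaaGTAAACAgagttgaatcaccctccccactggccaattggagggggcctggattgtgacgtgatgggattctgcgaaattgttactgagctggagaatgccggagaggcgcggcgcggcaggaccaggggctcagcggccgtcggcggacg
Txnip: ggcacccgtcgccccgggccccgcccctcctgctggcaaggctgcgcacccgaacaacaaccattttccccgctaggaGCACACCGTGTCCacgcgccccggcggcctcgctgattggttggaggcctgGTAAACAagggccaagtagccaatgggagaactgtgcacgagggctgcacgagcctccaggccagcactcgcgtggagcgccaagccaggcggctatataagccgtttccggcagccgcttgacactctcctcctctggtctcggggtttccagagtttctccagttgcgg
Tsc22d3: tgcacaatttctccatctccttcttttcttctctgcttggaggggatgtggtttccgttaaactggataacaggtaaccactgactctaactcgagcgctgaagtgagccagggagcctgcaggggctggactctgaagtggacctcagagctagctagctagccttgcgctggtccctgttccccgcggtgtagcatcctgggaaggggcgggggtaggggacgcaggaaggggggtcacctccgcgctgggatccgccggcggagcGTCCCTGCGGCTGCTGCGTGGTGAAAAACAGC

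Of the 10 genes, 7 held a fasting-enriched region inside the gene or within 10 kb, and 3 held none. By the same rule 23.3% of all protein-coding genes held one. The 7 were Sgk1, Tsc22d3, Zbtb16, Klf9, Klf15, Fbxo32 and Foxo3, and the 3 without were Fkbp5, Foxo1 and Txnip. Together they held 11 regions, 8 inside the genes and 3 outside. The genes had been picked with earlier results of these regions known, so these counts describe the 10 genes and are not independent evidence about the pathway. None of the 11 regions overlapped a second annotated gene.

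**Figure D1:**
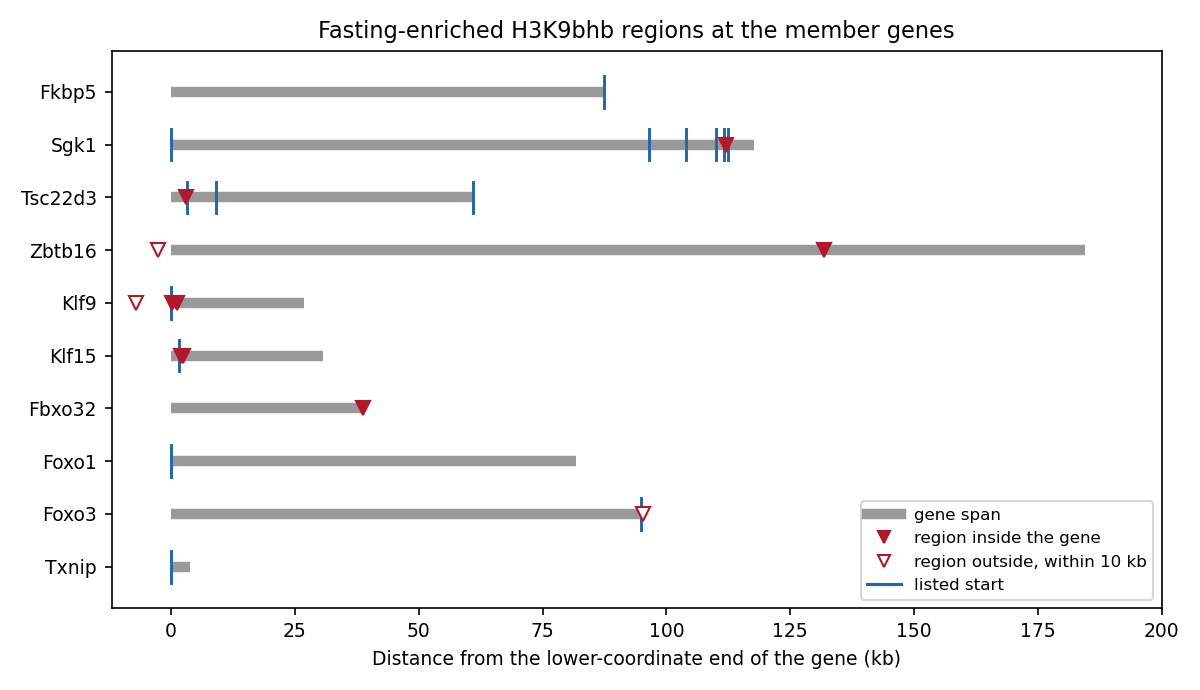
The span of each of the 10 genes (grey bars) is drawn in kb from its lower-coordinate end, with listed transcription starts (blue ticks) and fasting-enriched regions inside (filled triangles) or outside (open triangles) the gene. Regions stand beside a listed start at Sgk1, Tsc22d3, Klf9, Klf15 and Foxo3, while Fkbp5, Foxo1 and Txnip carry no triangle. Zbtb16 and Fbxo32 have no listed start.

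Gene length gave unequal room for a region. The 10 genes had a median length of 71.4 kb, against 17.2 kb over all protein-coding genes. Among genes of 100 kb or more 43.9% held a region by the 10 kb rule, and both of the 10 genes in that class, Zbtb16 and Sgk1, did. In the class of 50 to 100 kb the share was 31.5%, and 2 of 4 held one, Foxo3 and Tsc22d3 but not Foxo1 or Fkbp5. In the class of 10 to 50 kb it was 22.5%, and 3 of 3 did, namely Klf15, Fbxo32 and Klf9. Below 10 kb it was 15.2%, and Txnip, the single gene of that size among the 10, held none. With regions inside the gene alone, 6 of the 10 were counted, against 16.4% of all genes. With any region within 50 kb the count was again 7, against 43.0%.

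**Figure D2:**
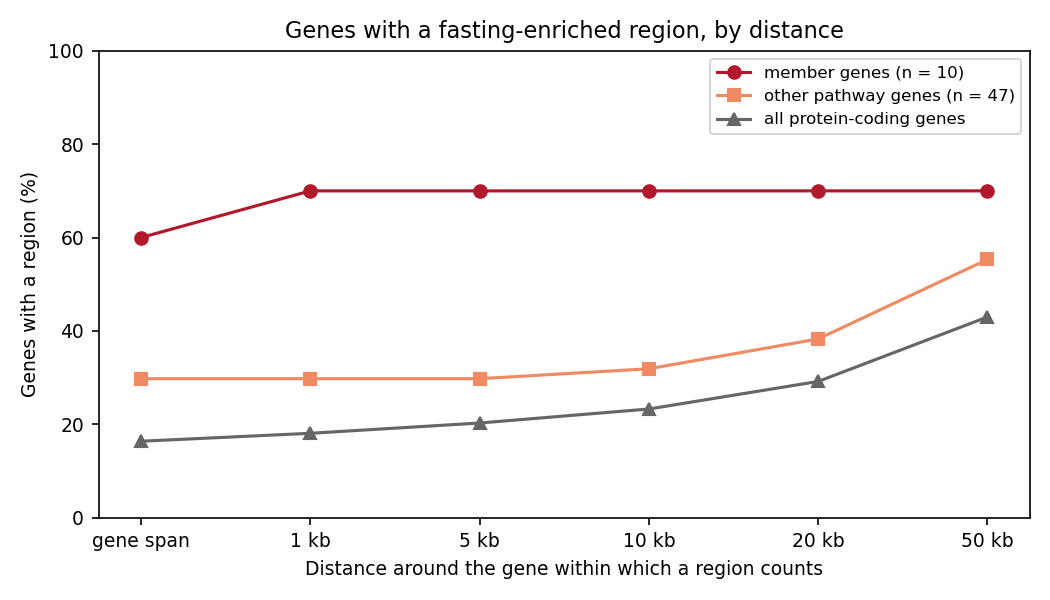
The percentage of genes with a fasting-enriched region is plotted against the distance around the gene within which a region counts, for the 10 genes, 47 other genes of the pathway and all protein-coding genes. The count for the 10 genes is 6 with the gene span alone and 7 at every wider distance shown, while the share of all protein-coding genes climbs to 43.0% at 50 kb.

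The kinase Sgk1, induced by glucocorticoids and able to phosphorylate FOXO3, held 1 region of 172 bp with a log-LR of 4.52 (chromosome 10, 21994123 to 21994294). The gene spans 118 kb and has 6 listed starts, and the region lay between the last pair of them. It began 233 bp downstream of the fifth start and ended 372 bp upstream of the sixth. The window at the fifth start, printed above, carries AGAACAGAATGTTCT at positions -189 to -175, where negative positions count back from the base before the start. This is a full match to the consensus, a pair of AGAACA hexamers inverted around 3 bases of any kind, searched on both strands. Such a match occurs in 3 of the 32851 promoter windows of the RefSeq table (0.00913%), and the other windows belong to Acnat2 and Gm35041, neither with a region within 1 kb of the start. The region itself did not cover the element.

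Tsc22d3, which encodes the leucine zipper protein GILZ, an inhibitor of inflammatory signalling downstream of glucocorticoids, held 1 region of 122 bp with a log-LR of 4.49. It was close to the narrowest region in the fasted list, at 120 bp. Its position on chromosome X, 140542529 to 140542650, is 18 to 139 bp downstream of the last of the 3 listed starts of this minus-strand gene. No region lay within 3 kb of the other starts. Regions were sparse on X, where 5.69% of 966 protein-coding genes held one by the 10 kb rule.

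Klf9, a zinc finger transcription factor gene induced by glucocorticoids in neurons, held the most regions of the 10 genes, with 3. At least 3 regions were found for 1.39% of all protein-coding genes. The first region inside the gene (chromosome 19, 23141273 to 23141487) was 215 bp wide with a log-LR of 4.10 and began 47 bp downstream of the start. The next, 691 bp further on at 23142179 to 23142629, was 451 bp wide and had a log-LR of 6.98. The third had the lowest log-LR of all 11 regions, 4.05, and lay 7031 bp upstream of the gene, 303 bp from the long non-coding RNA gene 2410080I02Rik. It was also the region farthest from its gene among the 11, and none of the 10 genes had a region between 10 and 50 kb away.

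Klf15, a related factor that drives amino acid breakdown and glucose production in fasting liver, held 2 regions. At least 2 were found for 3 of the 10 genes, against 5.08% of all protein-coding genes. The wider one (chromosome 6, 90462805 to 90463278) measured 474 bp, the widest of the 11, with a log-LR of 4.93, and began 229 bp downstream of the listed start. The other, 165 bp wide with a log-LR of 5.41, followed after a gap of 102 bp and ended 969 bp downstream. Klf9 and Klf15 thus both had a pair of regions on the transcribed side of the start. With regions within 1 kb merged, Klf15 held 1 region and Klf9 held 2.

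Zbtb16, which encodes the transcription factor PLZF, also held 2 regions, neither within 1 kb of a gene end. The one with the highest log-LR of all 11, 8.64, was 246 bp wide and lay outside the gene, 2410 bp beyond its lower-coordinate end (chromosome 9, 48649142 to 48649387). The other lay inside, 52475 bp from the nearest end, with a width of 149 bp and a log-LR of 5.21. The promoter table has no entry for Zbtb16.

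Fbxo32 encodes atrogin-1, the substrate-binding part of a ubiquitin ligase and a FOXO target known from muscle wasting. It held 1 region of 244 bp with a log-LR of 8.59 (chromosome 15, 58214488 to 58214731), inside the gene and 161 bp from its upper-coordinate end. The promoter table has no entry for Fbxo32.

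The FOXO factor genes among the 10 differed by a single region, whose log-LR was below the list median of 4.96. Foxo3 held 1 region of 294 bp with a log-LR of 4.79 (chromosome 10, 42276960 to 42277253), 265 to 558 bp upstream of its listed start and outside the gene. Foxo1 held none, and the nearest fasting-enriched region was 484 kb away, in Maml3. Of all protein-coding genes, 6.50% were as far from a region or farther. Foxo1, at 81.8 kb, is about as long as Foxo3, at 94.9 kb.

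Fkbp5 and Txnip held no region either. Fkbp5 encodes an Hsp90 co-chaperone that lowers hormone binding by the glucocorticoid receptor and is itself induced by it. The nearest region was 69.5 kb from the gene, in the ribosomal protein gene Rpl10a, and 49.9% of protein-coding genes were as far from a region or farther. Txnip encodes an arrestin-like protein that binds thioredoxin and restrains glucose uptake. Its nearest region was 99.4 kb away, a distance reached or passed by 41.1% of protein-coding genes. No region was listed within 50 kb of either gene. The list does not tell a gene that lacks the mark from one marked alike in both feeding states. The 1 region enriched in ad libitum mice was near none of the 10 genes, at 6.32 Mb from Foxo1 and 37.9 Mb from Txnip on chromosome 3.

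Among the 8 genes with a listed start, 5 had a region within 1 kb of one, namely Sgk1, Tsc22d3, Klf9, Klf15 and Foxo3. By the same rule 13.2% of protein-coding genes with a listed start had one. Of the 8 regions at these 5 genes, 7 lay within 1 kb of a listed start. Of these 7, 6 were downstream of the nearest start and the Foxo3 region was upstream. The distant Klf9 region, more than 1 kb from the start, was also upstream. In the whole list, 77.5% of the 2295 regions within 1 kb of a protein-coding start were downstream of the nearest start, 11.5% were upstream and 10.9% spanned it. Counted from either gene end in place of a listed start, 3 of the 10 genes had a region within 1 kb (Klf9, Fbxo32 and Foxo3), against 11.9% of all genes. Sgk1, Tsc22d3 and Klf15 were missed by that count because their regions lie at starts inside the annotated span.

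**Figure D3:**
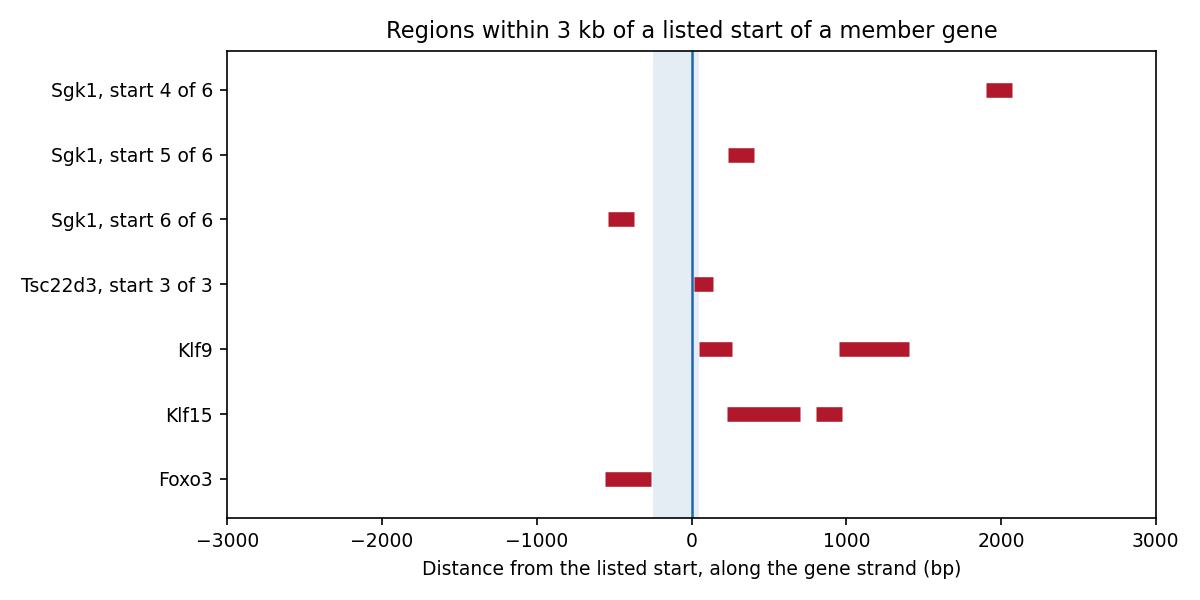
Fasting-enriched regions (red bars, drawn to scale) are placed by their distance in bp from a listed transcription start (blue line), with positive values along the direction of transcription and the promoter window shaded. Bars at Tsc22d3, Klf9 and Klf15 lie on the transcribed side, the Foxo3 bar lies upstream, and the single Sgk1 region appears in 3 rows because 3 of the 6 starts are within 3 kb of it.

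The scores of the 11 regions were spread through the fasted list. The median log-LR was 4.93 and the range 4.05 to 8.64, against a median of 4.96 and quartiles of 4.16 and 6.28 over all 8404 regions. The regions of Zbtb16 outside the gene (8.64), of Fbxo32 (8.59) and the wide Klf9 region (6.98) were above the upper quartile. The other Klf9 regions, at 4.10 and 4.05, were below the lower quartile. Widths ran from 122 to 474 bp with a median of 215 bp, against 205 bp for all regions. In sum the 11 regions covered 2741 bp.

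**Figure D4:**
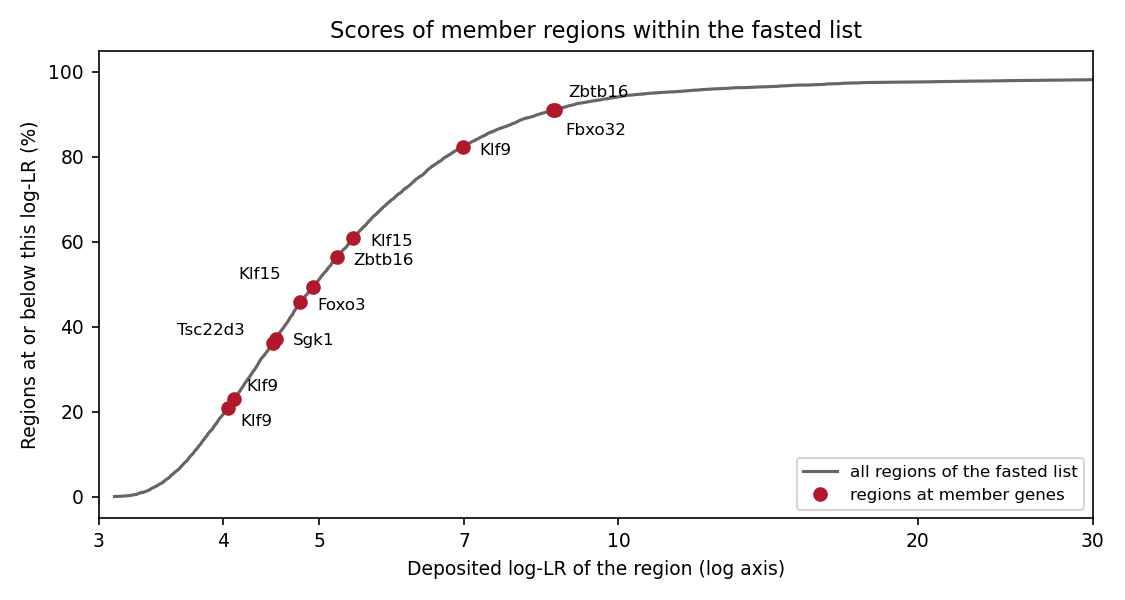
The cumulative share of all fasting-enriched regions (grey line, percent) is plotted against the deposited log-LR on a log axis, with the 11 regions of the 10 genes marked in red. Their values run from 4.05 at Klf9 to 8.64 at Zbtb16. The highest scores of the list, up to 1498, lie beyond the axis.

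Promoter windows were listed for 15 starts of 8 of the genes. Of these, 7 held 24 or more CpG dinucleotides, the upper quartile over 21263 windows of protein-coding genes, whose median was 13. The windows of Klf15, Foxo3, Fkbp5 and Foxo1 held 47, 35, 32 and 31 CpG, those of Klf9 and the sixth Sgk1 start 28 each, and that of Txnip 24. A region within 1 kb of the start was found for 27.9% of windows with 24 or more CpG, 15.8% with 13 to 23, 4.93% with 4 to 12 and 0.492% with 3 or fewer. Within the top class, Klf15, Foxo3, Klf9 and the sixth Sgk1 start had a region and Fkbp5, Foxo1 and Txnip did not. The Tsc22d3 start with a region had 16 CpG, its other starts 15 and 3. The fifth Sgk1 start had 10 CpG and a region, and the first 4 starts had 3 to 8 CpG and none.

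**Figure D5:**
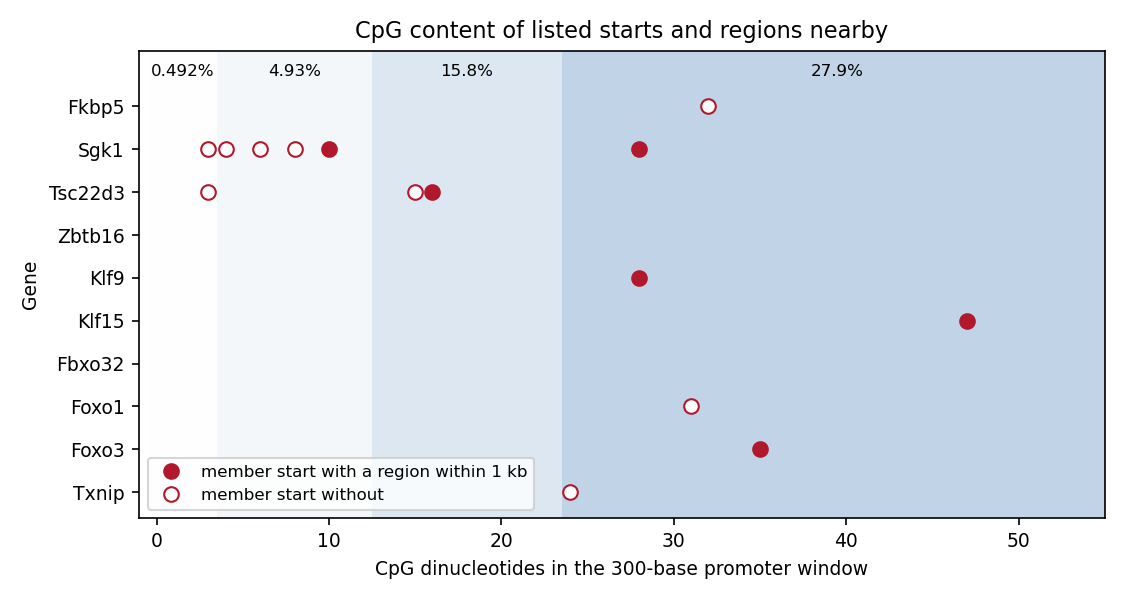
Each point is a listed start of one of the genes, placed by the number of CpG dinucleotides in its promoter window and filled where a fasting-enriched region lies within 1 kb. Shading and the percentages at the top give the share of all protein-coding windows of that CpG class with a region within 1 kb, from 0.492% to 27.9%. Open points at 24 to 32 CpG are Txnip, Foxo1 and Fkbp5.

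Other short motifs were counted on both strands of the 15 windows. The FOXO site GTAAACA was found in the windows of Klf9 (positions -100 to -94) and Txnip (-121 to -115), and in 3.65% of all windows. The looser glucocorticoid core, GNACA followed after 3 bases by TGTNC, with N any base, was found in 0.475% of all windows. It occurred at Txnip (-172 to -160) and, within the full element, at Sgk1. The E-box CACGTG was present in 3 of the 15 windows, at Fkbp5, Sgk1 and Klf15, and in 7.15% of all windows. Klf15 held 3 E-boxes, of which the one across the start overlapped a match to TGACG. The core of the cAMP response element, TGACG, was present in 5 of the 15 windows and in 20.8% of all. TATAAA was present in 2, both at Sgk1, and in 13.6% of all. The GC box GGGCGG was present in 9, and in 35.7% of all. All 15 windows belong to protein-coding genes, whose 21263 windows gave somewhat different shares. Over those the share was 46.2% for the GC box, 23.6% for TGACG and 12.6% for TATAAA. It was 7.84% for the E-box, 3.01% for GTAAACA and 0.442% for the looser core. The Fkbp5, Tsc22d3, Klf15, Foxo1 and Foxo3 windows held neither a glucocorticoid element match nor GTAAACA, which says only that these letters are not in these windows.

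The wider pathway was described through 47 other genes, of which 15 (31.9%) held a region by the 10 kb rule and 32 did not, against 23.3% of all protein-coding genes. Among receptors, hormone activation and chaperones 3 of 7 (42.9%) held one. Nr3c1, the glucocorticoid receptor gene, held 1 region with a log-LR of 7.54, inside the gene and 28154 bp from its nearest end. Nr3c2, the mineralocorticoid receptor gene, held 3, of which the highest, at 6.34, began 41 bp downstream of a listed start. Ncoa2, a receptor coactivator gene, held 2 with log-LR values of 4.08 and 3.67. Hsd11b1, Fkbp4, Hsp90aa1 and Ptges3 held none. Length differed between them, as Nr3c1, Nr3c2 and Ncoa2 span 109, 347 and 235 kb and the 4 without span 5.36 to 42.4 kb. Among all protein-coding genes of 100 kb or more, 43.9% held a region.

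Of 17 other glucocorticoid targets 4 (23.5%) held a region and 13 did not, a share near the 23.3% of all protein-coding genes. Map3k6, a stress kinase gene, had one 223 bp downstream of a start with a log-LR of 12.4. Cebpb, a transcription factor gene active in fasting liver, had 2, with a log-LR of 11.0 upstream of the start and 4.12 downstream. Ddit4, a brake on mTOR, had one of 3.62. The region counted for the clock gene Per1 (4.46) lay 6009 bp away and overlapped the synaptic vesicle gene Vamp2. Pdk4, Angptl4, Dusp1, Errfi1, Nfkbia, Cdkn1a, Mt1 and Mt2 were among those without.

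Of 18 FOXO family members and targets 8 (44.4%) held a region, against 23.3% of all protein-coding genes. Gadd45a, a growth arrest gene, had the highest log-LR of these, 6.59, in a region that also overlapped E230016M11Rik. Klhl24 had a region of 5.30 that began 97 bp inside the gene. Of the 18, only Gadd45a and Klhl24 had a region with a log-LR of at least 5. At that limit 12.6% of all protein-coding genes held one. Sesn1, a stress sensor that restrains mTOR, had 3 regions of 4.32, 3.54 and 4.98, the last 44 bp downstream of an inner start. Irs2, the insulin receptor substrate that FOXO factors induce, also had 3, from 4.36 to 4.72. Foxo4 and Foxo6 had none, so Foxo3 was the single FOXO gene of 4 with a region. That share, 1 of 4, is close to the 23.3% of all protein-coding genes. Foxo4 lies on chromosome X, where 5.69% of protein-coding genes held a region. Of 5 relatives and regulators of Txnip (Arrdc3, Arrdc4, Mlxip, Mlxipl and Mlx), 0 held one, against the same 23.3%.

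Neither the cell types that carry these regions nor expression can be read from the lists. Of 17 marker genes of cortical cell types 3 held a region by the 10 kb rule, against 23.3% of all protein-coding genes. The 3 were Tbr1 of excitatory neurons and the myelin genes Mbp and Cnp. The markers of inhibitory neurons, astrocytes and microglia held none, nor did Alb, Apoa1, Hbb-bs, Acta1 and Ckm of liver, blood and muscle. More cells with the mark and more mark per cell in fasted mice cannot be told apart in homogenised tissue.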

How the data were processed

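The authors' 2 deposited lists were used. Per the file headers they give a position and a log-LR for each region, read here as a score whose log base and cutoff no source used here gives. The submitters' processing notes name Bowtie2, MACS2 and mm10, with neither version nor role. Starts were read as counted from 0, since the narrowest region is then 120 bp, and are printed from 1. Depth, scaling, pooling and the use of the input libraries are not given, and a difference in depth or immunoprecipitation yield between feeding states would move which regions are listed.

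Regions were intersected with RefSeq gene spans of GRCm38.p6 for the 21887 protein-coding genes on assembled chromosomes. Starts, strands and promoter sequence came from the RefSeq promoter table of the same build, with 32851 windows. Counting was tested on simulated data. The genes, the pathway list and the motifs were chosen with earlier results of these data known. All 10 genes are named, as are, in each pathway group, up to 4 genes with a region, by highest log-LR, and Nr3c1 and Nr3c2. The other genes named, mainly those without a region, were chosen after their values were seen. No test was run, since no value per library exists. Settings varied were the distance, the log-LR limit, the overlap rule, merging, the end window and the genes counted, and, chosen after seeing the data, the window around a start. Python 3.11.15, numpy 2.4.6, pandas 2.3.3 and matplotlib 3.10.9 were used.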

Additional observations from a re-analysis of the deposited data

How the results depend on the processing

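The count of 7 genes with a region was the same at distances of 1, 5, 20 and 50 kb, with at least 50% of a region or its centre required inside, and with regions within 1 kb merged, and was 6 with the gene span alone. At a log-LR of at least 5 it was 4 (Zbtb16, Klf9, Klf15 and Fbxo32), against 12.6% of all protein-coding genes, and the 11 regions became 5. At a log-LR of at least 10 both counts were 0, against 0.900% of all genes. These limits remove regions by construction. Merging regions within 1 kb turned the 11 regions into 9. The 15 of 47 pathway genes became 26 at 50 kb, where 43.0% of all protein-coding genes held a region, 6 with log-LR limited to 5 or more and 2 to 10 or more, with the shares of all genes just given. The share of all protein-coding genes with a region was 24.3% on autosomes. It was 25.5% without olfactory and vomeronasal receptor genes and unnamed genes (Gm or Rik symbols). Within 3 kb of a gene end the count was 5 of the 10 in place of 3. Within 500 bp or 3 kb of a listed start, windows chosen after seeing the data, it was 5 as at 1 kb. For the 7 genes with a region, 54 of 70 counts per gene under the distance, log-LR, overlap and merging settings were within 1.5 times the reported one and 16 were not. No paired analysis was possible because no deposited value belongs to a single library, and leaving out replicates was not run for the same reason.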

Other observations

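Relatives of the 10 genes, grouped by symbol after earlier results were known and without a test, varied in how often they held a region by the 10 kb rule. All 4 Tsc22d genes, Tsc22d3 among them, held one. Tsc22d4 had the highest log-LR of the family, 9.82, and Tsc22d1, with 2 regions, reached 6.18. Among 14 Fkbp genes, which encode immunophilins, 6 held one although Fkbp5 did not. The Fkbp1a region (log-LR 6.30) lay 109 bp from an end of that gene, while the region counted for Fkbp3 overlapped Fancm. Of the 2 counted for Fkbp2, the one with the higher log-LR (7.48) lay 8041 bp away and overlapped Plcb3. The Fkbp14 region also overlapped Plekha8. Of 17 Klf genes 4 held one, Klf9 and Klf15 and, outside the set, Klf12 with values of 3.70 and 6.14 and Klf10 with one 7773 bp away. Of 3 Sgk genes 2 held one, Sgk1 and, outside the set, Sgk2. The region counted for Sgk2 (4.79) lay 3065 bp away and overlapped Ift52. The Arrdc family, arrestin-like genes to which Txnip is related, held a region in 0 of 5. Of 40 Zbtb genes 16 (40.0%) held one, Zbtb16 among them, with 5 regions at Zbtb7a. Whether neighbouring Zbtb genes shared a region was not checked. Over all protein-coding genes the share was 23.3%.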
